A study of Homo sapiens with 8 samples.

Results

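The granulocyte and monocyte marker genes are 36 genes whose products mark white cells of the granulocyte and monocyte lineages. They were found by symbol in the annotation of an Affymetrix array, and only probe sets that name a single gene were used. Where several remained for a gene, the one brightest on average on the log2(signal + 10) scale was taken. Such a probe set was found for 33 of the 36 genes, among 19775 genes that have one, and 32 were tested among 14162 genes. CD33 and RNASE3 were not analysed here, and neither was CD68, whose probe set also names another gene. FCGR1A, the high-affinity receptor for IgG, exceeded the median of all signals (60.0) on 1 array, at 62.4, by the probe set that names it alone, and was not tested. A brighter probe set that names FCGR1A together with the related FCGR1BP and FCGR1CP had 681 and 1189 in PRMT5 shRNA cells, 704 and 894 in scramble cells, 151 and 109.9 in CEP701 cells and 141 and 118 in DMSO cells, and cannot be assigned to 1 of them. By role, the tested genes are 7 granule proteins, 14 surface receptors and membrane proteins, 2 signalling adaptors, 3 calgranulins, 2 secreted proteins, 2 cystatins and 2 intracellular proteins.

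All arrays carry RNA from cells labelled HEL, a line grown from a human erythroleukaemia in which the kinase JAK2 is mutated and active. The drug arm has 2 arrays of CEP701-treated cells and 2 of cells kept in DMSO for an equal time. CEP701 is lestaurtinib, which inhibits the kinases JAK2 and FLT3, and its dose was 0.5 µM, over 16 h. The shRNA arm has 2 arrays of a stable line with a PRMT5 shRNA in the lentiviral vector pLKO, and 2 of cells with a scramble shRNA in that vector. PRMT5 is an arginine methyltransferase that JAK2 can phosphorylate, and the series sets the drug profile beside the knockdown profile. The knockdown line was made with 1 shRNA, and the labels name no vector for the drug arm. The arm, the vector, the culture, any batch and any difference in the identity of the cells therefore cannot be told apart. The labels do not say whether replicates were separate cultures, so the p-values below reflect no more than the scatter among these arrays, and that may be technical.

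Granulocytes and monocytes arise from shared progenitors in the marrow. Their progenitors fill primary granules with peroxidase, serine proteases and lysozyme, and the maturing cells add receptors for microbial products, antibodies and growth factors, adaptors that carry the signal inward, and the calgranulins that make up much of the neutrophil's cytosol. The transcription factors PU.1 and the C/EBP family drive many of these genes, while HEL cells are best known for erythroid and megakaryocytic features.

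Signals are on a linear scale and each array had been scaled to the same trimmed mean. Across genes, Pearson's r between arrays was 0.964 to 0.978 for replicates, 0.954 to 0.972 for treated against control arrays of the same arm and 0.804 to 0.845 across the arms. PRMT5 signals on the PRMT5 shRNA arrays were 35.2% to 45.8% of the scramble mean over 3 probe sets (log2 difference -1.52, adjusted p = 0.217, and 8.91e-05 with a block for the replicate pair). TFRC, the transferrin receptor, lay between 33295 and 51632 on all arrays, and ITGA2B, a platelet integrin, between 5285 and 10138. Some other erythroid and megakaryocyte markers differed between the arms. Log2 differences of scramble minus DMSO cells ran from -3.87 to 4.57 over 10 erythroid markers and from -0.38 to 6.03 over 8 megakaryocyte markers. HBE1, the embryonic globin, had signals of 772 and 298 in PRMT5 shRNA cells and 786 and 543 in scramble cells, but 11721 and 10385 in CEP701 cells and 9433 and 9887 in DMSO cells. Both arms carry the label HEL, and by these markers and those below they differ from each other.

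More marker genes differed between the arms than with either treatment. Relative to DMSO cells, scramble cells were higher for 28 of the 32 markers, where 25.5% of all genes were higher, and lower for 2, where 20.3% of all genes were lower (limma, Benjamini-Hochberg adjusted p under 0.05). With a block for the shRNA arm's replicate pairs LST1 joined the lower genes, which made 28 higher (29.9% of all genes) and 3 lower (25.2%). The median log2 difference over the 32 markers was 4.11, against 0.11 over all genes. Centring each array on its median moved the median of all genes to -0.20 and the split of calls to 2528 higher and 4051 lower (3608 and 2878 before), and scaling to the poly-A controls moved them to -0.28 and to 2065 and 3764. The markers then stood at 26 higher and 3 lower under either scaling, with medians of 3.81 and 3.74. For 13 markers the signals of the shRNA arm alone took the gene past the filter on low signals, so they had to be higher there, and neither their count nor their p-values support that direction. They are MPO, ELANE, PRTN3, CD14, CSF2RA, CD163, CLEC7A, LILRB1, S100A8, S100A9, S100A12, FCN1 and MNDA. Of the 14 markers that exceeded 60.0 on all 8 arrays, 10 were higher and 2 lower in scramble cells, with a median of 1.5. All 4 shRNA arm arrays lay above all 4 drug arm arrays for 27 markers (24.6% of all genes did so) and below them for 2 (20.5% of all genes). The 27 include the 13 whose direction the filter fixed. Where both DMSO arrays lay under 60.0, a fold is given as a lower bound, with the DMSO signals raised to 60.0. With those 13 markers at their bound the median was 3.44. In bulk RNA, fewer cells of a type and less RNA per cell cannot be told apart.

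**Figure D1:**
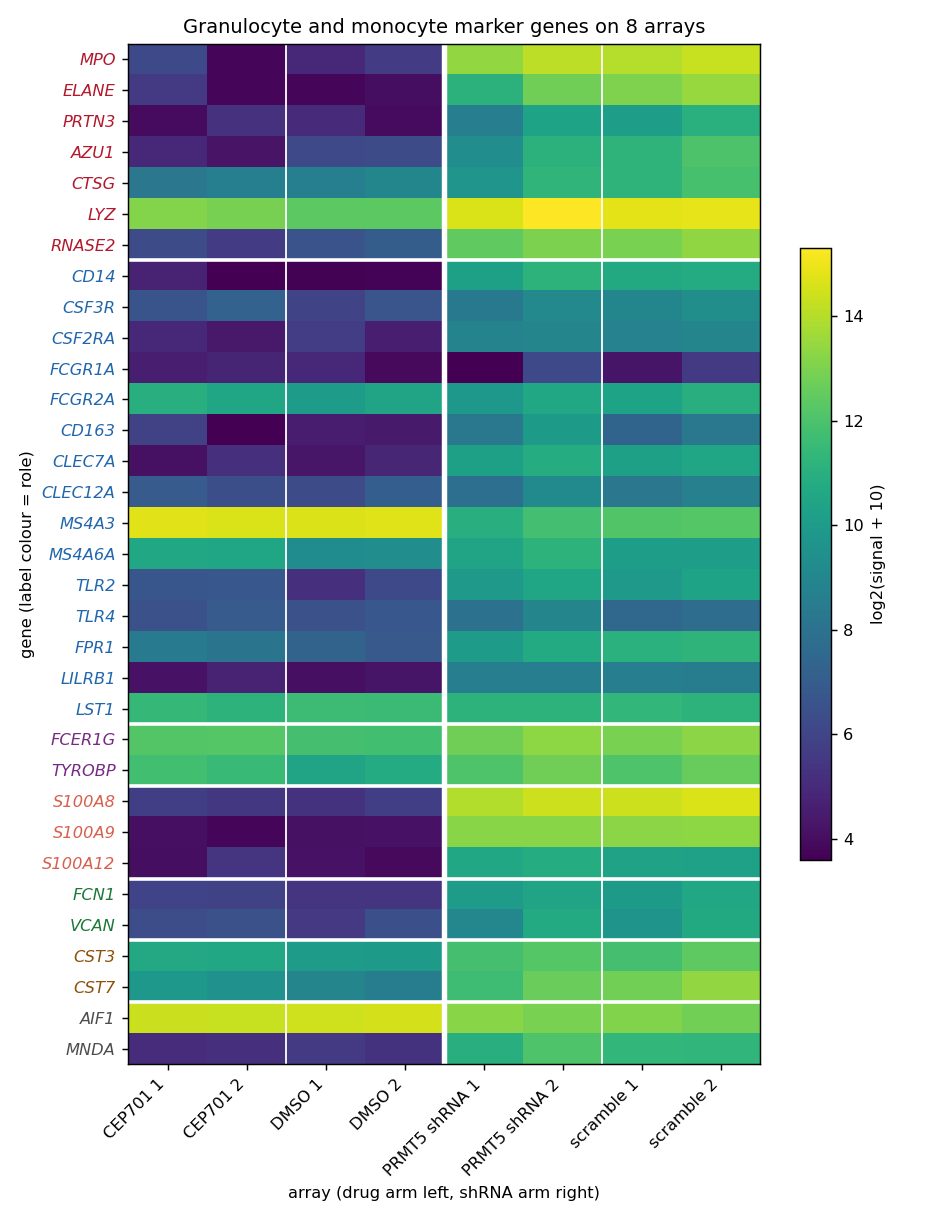
Signal of the 33 marker genes with a probe set (rows, grouped and coloured by role) on the 8 arrays (columns, drug arm left and shRNA arm right), as log2(signal + 10) on the colour scale. Most rows are lower on the 4 drug arm arrays, and MS4A3 and AIF1 are higher there.

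All 7 granule proteins were higher in scramble cells than in DMSO cells (25.5% of all genes were), a direction that the filter fixed for MPO, ELANE and PRTN3. Their median log2 difference was 6.09 (5.40 with bounds). MPO, the peroxidase that makes hypochlorous acid, had signals of 10913 and 18281 in PRMT5 shRNA cells and 16676 and 20593 in scramble cells, and of 63.5 and 4.13 in CEP701 cells and 20.8 and 41.4 in DMSO cells. ELANE, neutrophil elastase, had 2244 and 6951 in PRMT5 shRNA cells and 8459.9 and 11642 in scramble cells, with 37.8 and 4.02 in CEP701 cells and 3.78 and 6.56 in DMSO cells. PRTN3, proteinase 3, had 378 and 1345 in PRMT5 shRNA cells and 1108 and 2093 in scramble cells, against 28.5 at most in the drug arm. Each of these was high on all 4 shRNA arm arrays and near or under 60.0 on the drug arm arrays, with no overlap. Scramble cells exceeded DMSO cells at least 265-fold for MPO (log2 difference 8.86 ± 0.63 SE, adjusted p = 6.25e-06). The bound was 142-fold for ELANE (9.36 ± 0.60, adjusted p = 3.82e-06) and 21.9-fold for PRTN3 (6.09 ± 0.67, adjusted p = 9.37e-05).

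The remaining granule genes had signal in both arms or close to it. AZU1, azurocidin, an antimicrobial protease relative that has lost its enzyme activity, had 634 and 2241 in PRMT5 shRNA cells and 2398 and 4249 in scramble cells, against 20.3 and 8.35 in CEP701 cells and 61.5 and 70.7 in DMSO cells. CTSG, cathepsin G, had 819.7 and 2406 in PRMT5 shRNA cells and 2360.2 and 3838 in scramble cells, against 288 and 396 in CEP701 cells and 393 and 496 in DMSO cells. LYZ, lysozyme, had 25743 and 40585 in PRMT5 shRNA cells and 28663 and 30219 in scramble cells, against 8863 and 7656 in CEP701 cells and 5293 and 5252 in DMSO cells. CTSG and LYZ were thus measured in every group, with the arms apart. RNASE2, the eosinophil-derived neurotoxin, had 5579.6 and 8058 in PRMT5 shRNA cells and 7958 and 10539.9 in scramble cells, against 66.5 and 41.3 in CEP701 cells and 85.4 and 121 in DMSO cells. The scramble minus DMSO difference was 5.40 ± 0.53 for AZU1, 2.74 ± 0.44 for CTSG, 2.48 ± 0.20 for LYZ and 6.36 ± 0.28 for RNASE2 (adjusted p from 5.00e-07 to 8.34e-04). AZU1, PRTN3 and ELANE follow each other without another protein-coding gene between them on chromosome 19, in RefSeq's GRCh38.p14 annotation.

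The 3 calgranulins, calcium-binding proteins of the neutrophil and monocyte cytosol, had the highest median of the roles, 9.01 (7.16 with bounds). S100A8, which pairs with S100A9 to form calprotectin, had 15848 and 21840.0 in PRMT5 shRNA cells and 21961 and 25622 in scramble cells, against 44.4 and 34.4 in CEP701 cells and 29.5 and 43.9 in DMSO cells. S100A9 had 9638 and 9615 in PRMT5 shRNA cells and 9925 and 10108 in scramble cells, against 6.80 and 3.84 in CEP701 cells and 7.55 and 7.78 in DMSO cells. S100A12, a ligand of the receptor RAGE, had 1572 and 1859.6 in PRMT5 shRNA cells and 1311 and 1260.0 in scramble cells, and at most 31.1 in the drug arm. All 3 were under 60.0 on every drug arm array and far above it on every shRNA arm array, so the filter fixed their direction. The scramble minus DMSO difference was 9.01 ± 0.23 for S100A8 (at least 339-fold), 9.15 ± 0.20 for S100A9 (at least 143-fold) and 6.30 ± 0.41 for S100A12 (at least 18.5-fold), with adjusted p of 3.65e-08, 3.65e-08 and 4.13e-06 in that order. The genes lie next to each other on chromosome 1 in the order S100A9, S100A12, S100A8 by the same annotation.

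Of the 14 surface proteins tested, 11 were higher (25.5% of all genes) and 1 lower (20.3%) in scramble cells, and for 5 of the 11 the filter fixed the direction. The 14 had log2 differences with a median of 3.09 (2.12 with bounds) and a range from -2.54 to 7.05. CD14, the co-receptor for lipopolysaccharide, had 1224 and 2289 in PRMT5 shRNA cells and 1651 and 1751 in scramble cells, and at most 16.5 in the drug arm. CLEC7A, the beta-glucan receptor dectin-1, had 1205 and 1810.3 in PRMT5 shRNA cells and 1222 and 1455 in scramble cells, and at most 26.1 in the drug arm. LILRB1, an inhibitory receptor for MHC class I, had 381 and 386 in PRMT5 shRNA cells and 382 and 367 in scramble cells, and at most 16.4 in the drug arm. These receptors were under 60.0 on all drug arm arrays, and the bounds for scramble over DMSO were 24.4-fold for CD14, 19.2-fold for CLEC7A and 5.49-fold for LILRB1. The same held for the haptoglobin-haemoglobin scavenger receptor CD163, with 299.9 and 1006 in PRMT5 shRNA cells and 158 and 297 in scramble cells (at least 3.25-fold over DMSO). It also held for CSF2RA, a subunit of the GM-CSF receptor, with 447 and 483 in PRMT5 shRNA cells and 428 and 475 in scramble cells (at least 6.59-fold). The filter fixed the direction of these 5, so their adjusted p (2.75e-06 to 0.00621) does not bear on it.

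Other receptors had signal above 60.0 on at least 3 of the 4 arrays of each arm. FPR1, the formyl peptide receptor, had 1060.3 and 1742 in PRMT5 shRNA cells and 2124 and 2362 in scramble cells, against 343 and 264 in CEP701 cells and 151 and 105 in DMSO cells. TLR2, a sensor of bacterial lipoproteins, had 931 and 1421 in PRMT5 shRNA cells and 944 and 1338 in scramble cells, against 95.6 and 101 in CEP701 cells and 27.9 and 62.7 in DMSO cells. CSF3R, the G-CSF receptor, had 312 and 547 in PRMT5 shRNA cells and 492 and 652 in scramble cells, against 89.6 and 144 in CEP701 cells and 54.2 and 92.3 in DMSO cells. On the log2 scale scramble cells were above DMSO cells by 4.05 ± 0.28 for FPR1, 4.43 ± 0.35 for TLR2 and 2.83 ± 0.38 for CSF3R (adjusted p = 5.54e-06, 1.32e-05 and 2.89e-04). CLEC12A, an inhibitory lectin receptor, had 221 and 567 in PRMT5 shRNA cells and 294 and 403 in scramble cells, against 115 and 75.9 in CEP701 cells and 67.3 and 127 in DMSO cells. TLR4, the lipopolysaccharide receptor, had 252 and 471 in PRMT5 shRNA cells and 173 and 208 in scramble cells, against 80.5 and 115 in CEP701 cells and 81.2 and 99.6 in DMSO cells. MS4A6A, a membrane protein of monocytes and macrophages, had 1391 and 2328 in PRMT5 shRNA cells and 1097 and 1101 in scramble cells, against 1542 and 1476 in CEP701 cells and 612 and 633 in DMSO cells. Its CEP701 signals fell within the range of the shRNA arm. Scramble cells exceeded DMSO cells by 1.78 ± 0.47 for CLEC12A (adjusted p = 0.0118), 0.998 ± 0.36 for TLR4 (adjusted p = 0.0473) and 0.81 ± 0.23 for MS4A6A (adjusted p = 0.0158). Over the MS4A6A probe sets above 60.0 on all arrays this difference ran from 0.10, with overlapping groups, to 1.28. CLEC12A no longer passed without DMSO replicate 1 or scramble replicate 2 (adjusted p = 0.093 and 0.0685), and MS4A6A without either DMSO array or scramble replicate 2 (adjusted p from 0.0529 to 0.083). TLR4 no longer passed without any 1 of the 6 CEP701, DMSO and scramble arrays (adjusted p from 0.0578 to 0.183). TLR4 also did not pass with no filter, without the variance trend or under quantile, median or poly-A scaling (differences of 0.58 to 0.998, adjusted p from 0.0531 to 0.219). MS4A6A did not pass under those 3 scalings (differences of 0.40 to 0.64, adjusted p from 0.0591 to 0.259).

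A pair of surface genes did not pass between the arms. FCGR2A, a low-affinity IgG receptor, had 905 and 1511 in PRMT5 shRNA cells and 1319.5 and 2043 in scramble cells, against 1957 and 1456 in CEP701 cells and 1063 and 1389.8 in DMSO cells, and its groups overlapped (0.43 ± 0.30, adjusted p = 0.266). LST1, a leukocyte membrane protein, had 2258 and 2260.0 in PRMT5 shRNA cells and 2586 and 2257 in scramble cells, against 2686 and 2272 in CEP701 cells and 3105 and 3067 in DMSO cells (-0.35 ± 0.15, adjusted p = 0.0807, and 0.0247 with the replicate block).

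MS4A3 and AIF1 ran the other way. MS4A3, a membrane protein of granulocyte-monocyte progenitors and basophils, had 1962 and 3559 in PRMT5 shRNA cells and 4486 and 4778 in scramble cells, against 28264 and 25653 in CEP701 cells and 26509 and 27503 in DMSO cells. AIF1, an actin-binding protein of macrophages, had 9687 and 7891 in PRMT5 shRNA cells and 8758 and 7233 in scramble cells, against 21031 and 20624 in CEP701 cells and 22373 and 23677 in DMSO cells. Every shRNA arm array lay below every drug arm array for both genes. Scramble cells were below DMSO cells by a log2 difference of -2.54 ± 0.23 for MS4A3 (adjusted p = 2.86e-05) and -1.53 ± 0.15 for AIF1 (adjusted p = 3.91e-05). A second MS4A3 probe set gave -2.81, and 2 further AIF1 probe sets gave -1.46 and -1.08. MS4A3 and MS4A6A lie on chromosome 11 with MS4A2 between them, and differed from each other in sign between the arms.

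Adaptors, cystatins, secreted proteins and the nuclear antigen MNDA were higher in scramble cells. FCER1G, the signalling chain shared by Fc receptors, had 6879.8 and 10067 in PRMT5 shRNA cells and 7921 and 9899 in scramble cells, against 4683 and 4777 in CEP701 cells and 3713 and 3458 in DMSO cells. TYROBP, the adaptor DAP12, had 4266 and 7042 in PRMT5 shRNA cells and 4285 and 6146 in scramble cells, against 3425 and 2985 in CEP701 cells and 1382 and 1795 in DMSO cells. The adaptors overlapped nowhere between the arms and differed by 1.30 ± 0.19 and 1.70 ± 0.26 on the log2 scale. CST3, cystatin C, had 3725 and 4726 in PRMT5 shRNA cells and 3642 and 5335 in scramble cells, against 1616 and 1501 in CEP701 cells and 1058 and 996 in DMSO cells. CST7, cystatin F, an inhibitor of lysosomal cathepsins in immune cells, had 3234 and 6251 in PRMT5 shRNA cells and 7226 and 10901 in scramble cells, against 919.5 and 721 in CEP701 cells and 481 and 373 in DMSO cells. The cystatins differed by 2.09 ± 0.20 and 4.36 ± 0.31. FCN1, the lectin M-ficolin, had 1036 and 1388 in PRMT5 shRNA cells and 1010.5 and 1574 in scramble cells, against 51.9 and 48.1 in CEP701 cells and 31.4 and 31.99 in DMSO cells. VCAN, the matrix proteoglycan versican, had 516 and 1704 in PRMT5 shRNA cells and 802 and 1645 in scramble cells, against 71.2 and 81.0 in CEP701 cells and 36.1 and 78.4 in DMSO cells. MNDA, an interferon-inducible protein of the monocyte nucleus, had 2035 and 4321 in PRMT5 shRNA cells and 2595 and 2557 in scramble cells, against 23.9 and 27.4 in CEP701 cells and 37.3 and 30.3 in DMSO cells. None of these 7 genes overlapped between the arms, and all 7 passed (adjusted p from 1.84e-06 to 6.34e-04), where the filter had fixed the direction of FCN1 and MNDA. Over all genes 24.6% lay higher in the shRNA arm without overlap, and 25.5% passed as higher in scramble cells.

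**Figure D2:**
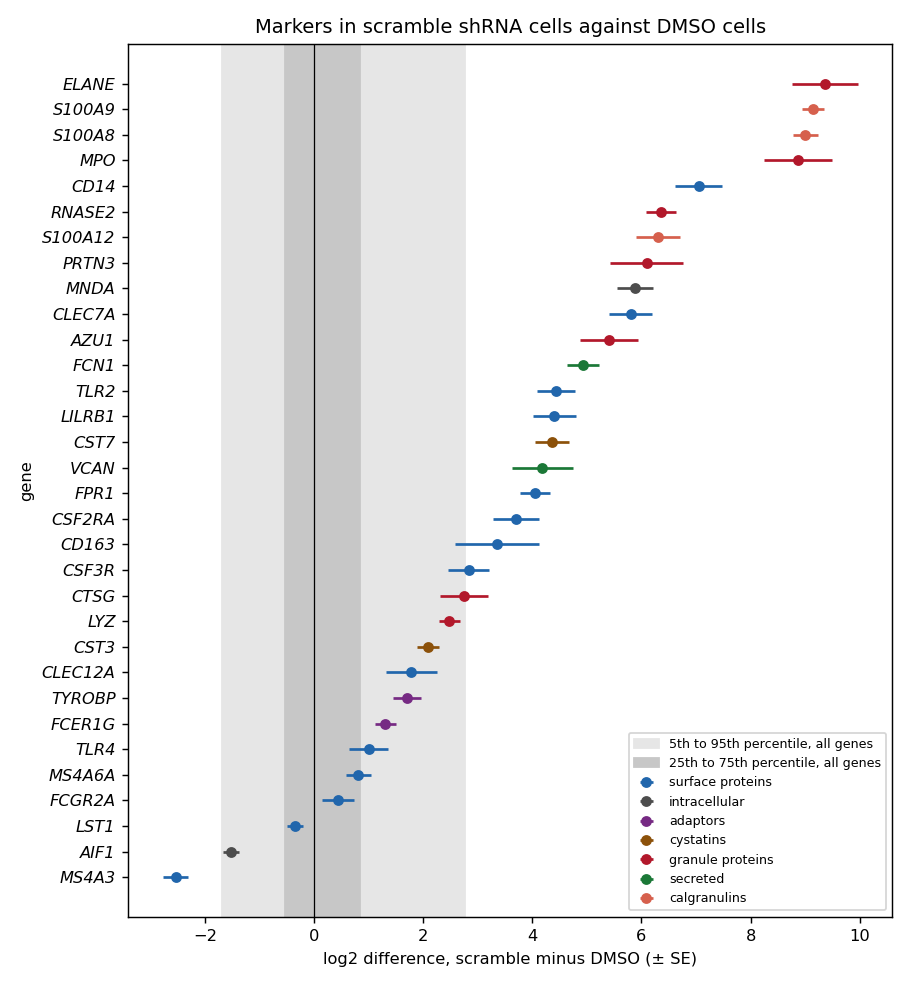
Log2 difference of each tested marker, scramble minus DMSO (points, with bars of ± 1 SE from limma), ordered by size and coloured by role. Grey bands mark the 5th to 95th and the 25th to 75th percentile of all 14162 genes. ELANE, S100A9, S100A8 and MPO lie highest, and MS4A3 and AIF1 lie left of 0.

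Markers of other lineages were counted between the arms in the same way, against 25.5% of all genes higher and 20.3% lower in scramble cells, and their part in the result was not tested. Of 10 megakaryocyte markers, 8 were tested and 4 were higher in scramble cells, and the summed signal of the list was 49498 to 87888 in PRMT5 shRNA cells and 63162 to 118049.5 in scramble cells, against 14191 to 14337 in CEP701 cells and 15150.4 to 15249.5 in DMSO cells. Of 10 eosinophil, basophil and mast cell markers, 8 were tested, 6 were higher and 1 lower, with sums of 82766 to 114081 and 108421 to 135325 in the PRMT5 shRNA and scramble cells, against 51565 to 52201 and 45661 to 49682 in the CEP701 and DMSO cells. TPSAB1, a mast cell tryptase, was at 113 or less in the drug arm and at 9938 or more in the shRNA arm. Of 16 erythroid markers, 10 were tested, 2 were higher and 3 lower, shares near those of all genes. Of 5 epithelial markers, 3 were higher, with EPCAM and CDH1 at 484 to 2753 in the shRNA arm and at 49.8 or less in the drug arm, and KRT18 lower. The filter fixed the direction of EPCAM and CDH1. All 5 epithelial markers were tested, and 3 of them, EPCAM and CDH1 included, were under 60.0 on every drug arm array. The shRNA arm alone took these 3 past the filter, so their count does not support the higher direction. Among the 8 tested eosinophil, basophil and mast cell markers, 1 was under 60.0 on every drug arm array.

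Promoter sequences are shown for genes whose signals moved together between the arms (the neighbours AZU1 and PRTN3, cathepsin G and S100A9) and for MS4A3, which moved against them. Each run is the 250 bases before the gene's start, 5′ to 3′ on the gene's strand, from RefSeq (GRCh38.p14). Capitals mark GAGGAA, the core that PU.1 binds, and TTGCNNAA, a pattern of C/EBP sites, each searched on both strands.
AZU1: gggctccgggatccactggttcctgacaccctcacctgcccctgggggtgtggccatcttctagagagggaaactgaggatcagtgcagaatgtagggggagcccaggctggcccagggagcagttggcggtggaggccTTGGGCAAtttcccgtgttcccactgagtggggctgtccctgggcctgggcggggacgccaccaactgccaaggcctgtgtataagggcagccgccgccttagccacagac
PRTN3: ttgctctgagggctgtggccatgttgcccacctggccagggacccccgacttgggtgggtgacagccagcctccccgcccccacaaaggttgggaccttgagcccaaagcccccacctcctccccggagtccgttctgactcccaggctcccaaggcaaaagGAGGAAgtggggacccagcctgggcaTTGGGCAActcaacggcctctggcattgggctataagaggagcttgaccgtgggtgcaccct
CTSG: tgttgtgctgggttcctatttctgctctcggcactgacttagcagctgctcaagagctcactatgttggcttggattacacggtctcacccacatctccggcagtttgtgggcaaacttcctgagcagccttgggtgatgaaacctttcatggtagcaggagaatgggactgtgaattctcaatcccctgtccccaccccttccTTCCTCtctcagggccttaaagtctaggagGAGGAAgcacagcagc
S100A9: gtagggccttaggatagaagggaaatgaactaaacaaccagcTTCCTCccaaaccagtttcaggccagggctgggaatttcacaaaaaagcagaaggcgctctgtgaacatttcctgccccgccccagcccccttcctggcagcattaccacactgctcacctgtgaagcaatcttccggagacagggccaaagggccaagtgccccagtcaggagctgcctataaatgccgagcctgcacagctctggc
MS4A3: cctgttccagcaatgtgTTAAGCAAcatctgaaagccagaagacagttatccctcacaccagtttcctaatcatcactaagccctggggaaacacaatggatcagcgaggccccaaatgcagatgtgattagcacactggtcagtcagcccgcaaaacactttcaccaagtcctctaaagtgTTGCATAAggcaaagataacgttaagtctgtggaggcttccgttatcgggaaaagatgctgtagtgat
The windows are chr19:827587-827836 and chr19:840749-840998 on the plus strand, chr14:24576251-24576500 on the minus strand, and chr1:153357604-153357853 and chr11:60056415-60056664 on the plus strand. AZU1 holds a C/EBP pattern and no PU.1 core, PRTN3 both patterns, and CTSG (at 2 places) and S100A9 the PU.1 core. MS4A3 holds the C/EBP pattern at 2 places with no PU.1 core in these letters. AIF1, which moved as MS4A3 did and is not shown, holds the PU.1 core in each of its entries, at 2 places and at 1.

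RefSeq promoter entries were found for 31 of the 36 marker genes, 42 entries in all, and entries of 1 gene can overlap. GAGGAA occurred in 59.5% of the 42 entries, against 23.6% of 34943 promoters of the same length. TTGCNNAA occurred in 28.6% of the entries, against 9.06% of all promoters, and AGATAA, a pattern of the erythroid GATA factors, in 11.9%, against 9.19%. These shares are descriptions without a test, and a match is not a measured binding site. No FPR1, CST3, FCER1G, LILRB1, TLR2 or VCAN entry held GAGGAA or TTGCNNAA.

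The comparison of CEP701 with DMSO asked what 16 h of kinase inhibition did to these markers. MS4A6A and FPR1 rose, and no marker fell by the test. That is 2 of 32, where 3.74% of all genes rose and 2.04% fell. MS4A6A had the values given above, with both CEP701 arrays above both DMSO arrays, and averaged 1509 ± 46.5 in CEP701 cells and 622 ± 14.8 in DMSO cells (SD, n = 2 each). Its log2 difference was 1.26 ± 0.23 (SE, adjusted p = 0.0187). Over the 5 MS4A6A probe sets that exceeded 60.0 on all arrays the difference was 0.91 to 1.58. FPR1 averaged 303 ± 55.6 in CEP701 cells and 128 ± 32.5 in DMSO cells (SD, n = 2 each), a log2 difference of 1.19 ± 0.28 (adjusted p = 0.0419). Both calls were lost when any 1 of the 4 drug arm arrays was left out. Neither gene passed after scaling to the poly-A controls (adjusted p = 0.0917 for MS4A6A and 0.146 for FPR1) or without the variance trend (0.0753 and 0.108). FPR1 also did not pass with no filter, with quantile normalization or with median scaling (adjusted p = 0.0600, 0.0984 and 0.0615).

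**Figure D3:**
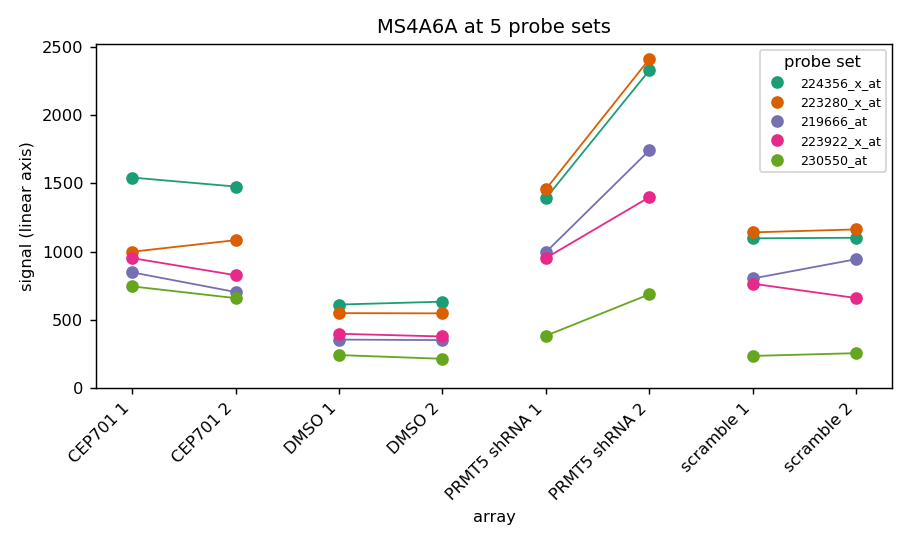
Signal (linear axis) of the 5 MS4A6A probe sets above 60.0 on all arrays, on each of the 8 arrays, with lines joining the 2 arrays of a group. In every probe set both CEP701 arrays lie above both DMSO arrays, and both PRMT5 shRNA arrays lie above both scramble arrays.

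Other markers moved in the same direction without passing. TYROBP averaged 3205 ± 311 in CEP701 cells and 1589 ± 292 in DMSO cells (SD, n = 2 each), a log2 difference of 1.02 ± 0.26 (adjusted p = 0.0524). The differences of CST7 (0.93 ± 0.31), LYZ (0.64 ± 0.20), CST3 (0.60 ± 0.20) and FCER1G (0.40 ± 0.19) had both CEP701 arrays above both DMSO arrays, with adjusted p from 0.0839 to 0.236. A second LYZ probe set overlapped, with 830 and 1024 in CEP701 cells and 872 and 840 in DMSO cells, a log2 difference of 0.11. TLR2 was at 1.04 ± 0.35 (adjusted p = 0.112), with DMSO signals around and under 60.0. When the 4 drug arm arrays were fitted alone, TYROBP, CST7, LYZ, CST3 and FCER1G passed beside MS4A6A and FPR1. That made 7 of 32 higher, where 12.6% of all genes were higher, and 0 lower, where 10.1% were lower. With the shRNA arm's pairs as a block in the fit of all 8 arrays, TLR2 passed as well and AZU1 and RNASE2 passed as lower, which made 8 higher (12.6% of all genes) and 2 lower (9.71%). The calls for adaptors, cystatins and lysozyme thus depended on which arrays set the spread.

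The granule genes with signal near or above 60.0 in the drug arm did not share a direction with CEP701. AZU1 (-1.69 ± 0.53, adjusted p = 0.0935) and RNASE2 (-0.84 ± 0.28, adjusted p = 0.108) had both CEP701 arrays below both DMSO arrays, at signals near or under 60.0 in CEP701 cells. CTSG had a difference of -0.38 ± 0.44 (adjusted p = 0.643), with overlapping groups. LYZ had one of 0.64, but 0.11 with overlapping groups at its second probe set. The granule genes measured well above 60.0 in the drug arm thus lay on both sides of 0. MPO, ELANE and PRTN3 were under 60.0 on both DMSO arrays, and CD14, CSF2RA, CD163, CLEC7A, LILRB1, FCN1, MNDA and the calgranulins were under 60.0 on all drug arm arrays, so no direction was read for these 13. MS4A3 averaged 26958 ± 1846 in CEP701 cells and 27006 ± 703 in DMSO cells (SD, n = 2 each), a difference of -0.00 with a 95% interval of -0.53 to 0.52. Over all 32 markers, dim ones included, both CEP701 arrays exceeded both DMSO arrays for 10 (36.3% of all genes did so) and lay below them for 6 (25.7%). Over the 14 markers above 60.0 on all 4 drug arm arrays these counts were 8 and 2, with a median difference of 0.44, against 0.10 for all genes. The shares and the median of all genes include dim genes and were not computed for genes chosen by the same signal. Over all genes 530 rose and 289 fell, against 245 and 569 after centring each array on its median and 91 and 969 after scaling to the poly-A controls. The poly-A scaling moved the median of all genes to -0.39 and that of the 32 markers to -0.08 (0.10 and 0.27 before), and AZU1 and RNASE2 then passed as lower (adjusted p = 0.026 and 0.022).

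**Figure D4:**
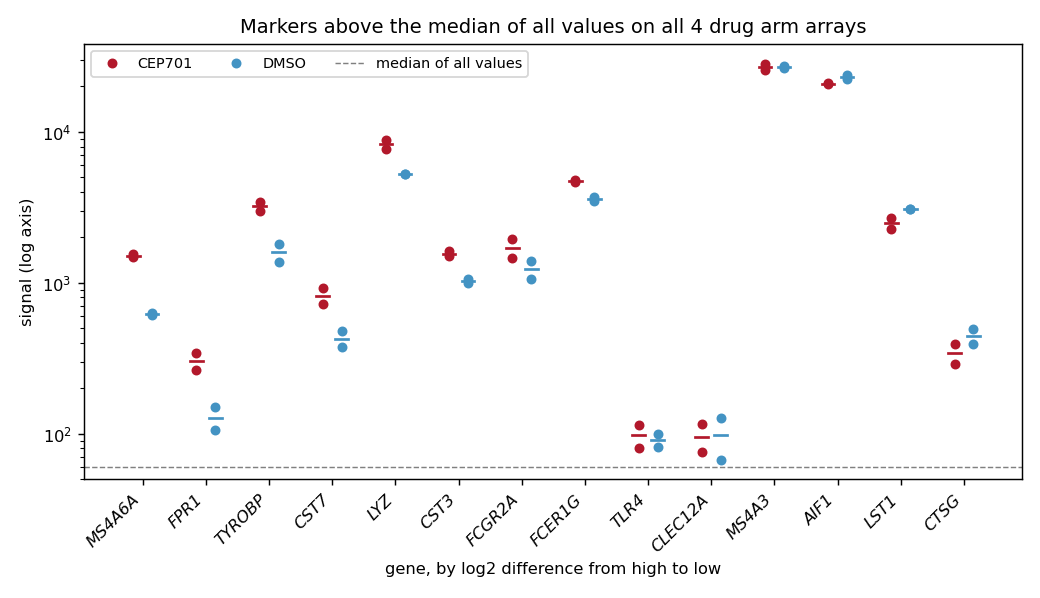
Signal (log axis) of the 14 markers above 60.0 on all 4 drug arm arrays, with each array as a point and each group's mean as a bar, CEP701 left of DMSO, ordered by log2 difference. Both CEP701 points lie above both DMSO points for 8 genes (MS4A6A, FPR1, TYROBP, CST7, LYZ, CST3, FCGR2A and FCER1G) and below them for AIF1 and LST1, and TLR4, CLEC12A, MS4A3 and CTSG overlap.

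The knockdown was set against scramble cells to see what a lower PRMT5 level did to the markers. None of the 32 markers passed by limma, where 0.00706% of all genes rose and 0.141% fell, and 7 had an unadjusted p under 0.05 (2 higher, against 2.39% of all genes, and 5 lower, against 4.31%). The arrays of this arm pair by a shared suffix in their titles, and with the pair as a block 4 markers fell, where 1.43% of all genes fell, and none rose, where 0.318% did. These were CST7 (-0.98, adjusted p = 0.505, and 0.0127 with the block), MS4A3 (-0.81, 0.413, and 0.0234 with the block), CTSG (-1.09, 0.694, and 0.0328 with the block) and AZU1 (-1.41, 0.661, and 0.0456 with the block). With the block in both arms AZU1 was at 0.0509 and the other 3 still passed. Within pairs 1 and 2 the differences were -1.16 and -0.80 for CST7, -1.19 and -0.42 for MS4A3, -1.51 and -0.67 for CTSG and -1.90 and -0.92 for AZU1.

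The granule proteins lay mostly lower in PRMT5 shRNA cells than in scramble cells, and whether this differs from the surface proteins was not tested. Of 7 granule genes, 6 were below 0, with a median log2 difference of -1.08, against 0.03 for the 14 surface genes and 0.00 for all genes. ELANE was at -1.33 ± 0.60 (adjusted p = 0.754, and 0.211 with the block), with both PRMT5 shRNA arrays below both scramble arrays, and PRTN3 at -1.08 ± 0.67 (adjusted p = 0.829, and 0.341 with the block). MPO (-0.39) and RNASE2 (-0.45) were lower in both pairs, and LYZ (0.14) was of mixed sign. The granule median was -1.51 in pair 1 and -0.63 in pair 2. It rested in part on PRMT5 shRNA replicate 1, since it was -0.18 without that array and -1.86 without replicate 2. Over 32 markers, 13 were lower in both pairs, 6 were higher in both and 13 were mixed, and these shares were not computed over all genes. Taken singly, pair 1 had 24 markers below 0 and pair 2 had 15, against 7021 and 7042 of 14162 genes. The groups did not overlap for 7 markers on the lower side (16.1% of all genes) and 4 on the higher side (14.1%).

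Several surface genes lay higher in PRMT5 shRNA cells without passing. CD163 averaged 653 ± 499 in PRMT5 shRNA cells and 228 ± 98.5 in scramble cells (SD, n = 2 each), with pair differences of 0.88 and 1.72 (adjusted p = 0.823). TLR4 averaged 362 ± 155 in PRMT5 shRNA cells and 190.4 ± 24.8 in scramble cells (SD, n = 2 each), with pair differences of 0.52 and 1.14 (adjusted p = 0.739). MS4A6A averaged 1859 ± 663 in PRMT5 shRNA cells and 1099 ± 2.98 in scramble cells (SD, n = 2 each), a log2 difference of 0.71 ± 0.23 (adjusted p = 0.507, and 0.0645 with the block). All 5 of its probe sets had positive differences, from 0.59 to 1.04. S100A8 and S100A9, with differences of -0.35 and -0.06, and CD14, with -0.02, had 95% intervals of -0.87 to 0.17, -0.51 to 0.40 and -0.99 to 0.94 (adjusted p of 0.845 to 0.998).

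**Figure D5:**
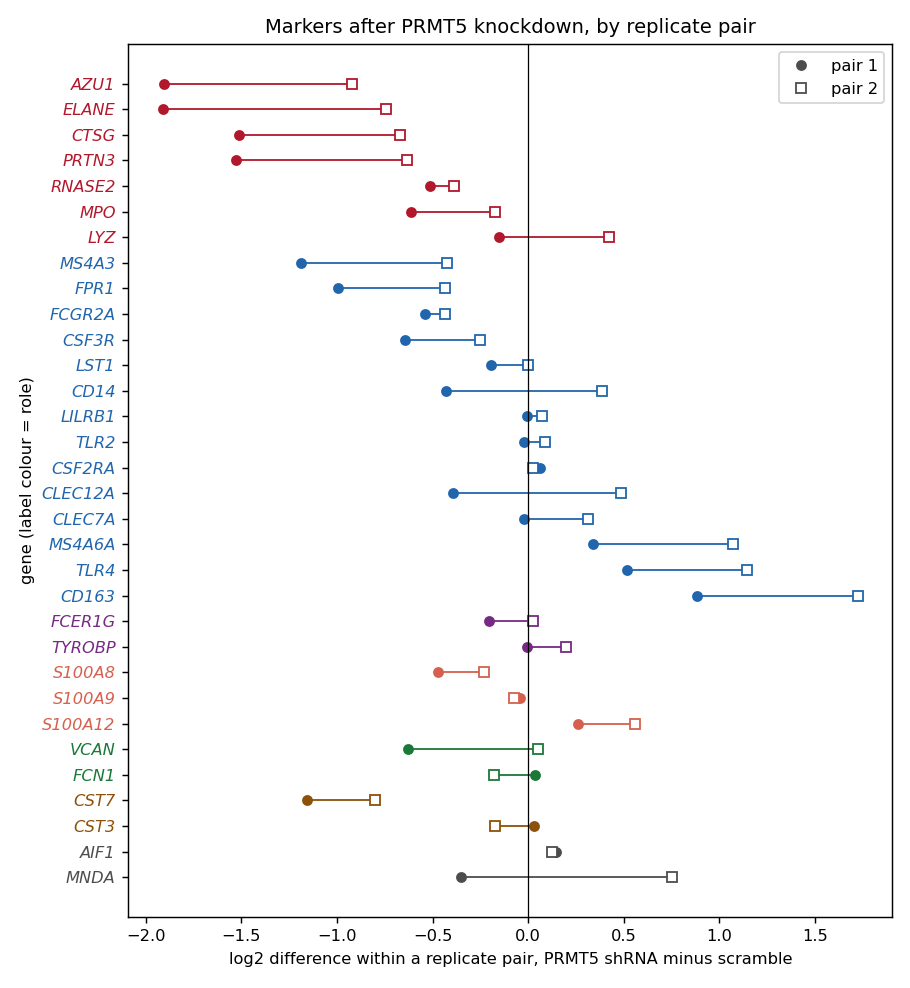
Log2 difference between PRMT5 shRNA and scramble within each replicate pair (filled circle for pair 1, open square for pair 2, joined by a line), for the 32 tested markers grouped and coloured by role. AZU1, ELANE, CTSG and PRTN3 lie left of 0 in both pairs, and CD163, TLR4 and MS4A6A right of it.

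The replicate arrays of the shRNA arm differed from each other in these genes. Of the 32 markers, 30 were higher in PRMT5 shRNA replicate 2 than in replicate 1, with a median log2 difference of 0.73, and 27 were higher in scramble replicate 2 than in replicate 1, with a median of 0.31. Over all genes those medians were 0.03 and 0.00. The summed megakaryocyte markers were likewise higher in replicate 2 of both groups, while EPCAM had 2753 and 484 in PRMT5 shRNA replicates 1 and 2 and 2660.4 and 980.4 in scramble replicates 1 and 2. All 8 megakaryocyte, all 8 eosinophil, basophil and mast cell, and all 5 epithelial markers lay lower in PRMT5 shRNA cells than in scramble cells. Their median log2 differences were -0.42, -0.39 and -0.43 in that order, against 0.00 over all genes. Of all 14162 genes, 7021 lay below 0 in pair 1 and 7042 in pair 2. None of these 21 markers passed by limma. An unadjusted p under 0.05 on the lower side was found for 1 of them, against 4.31% of all genes. The part of these markers in the knockdown values was not tested.

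The difference between both effects, the CEP701 effect minus the knockdown effect, was tested in the same model. No marker passed, where 1.11% of all genes were higher and 0.325% lower, and 7 had an unadjusted p under 0.05, all of them higher (12.1% of all genes were). FPR1 had a difference of 1.91 ± 0.39 (adjusted p = 0.0529) and CST7 of 1.91 ± 0.44 (adjusted p = 0.0711). With the block in the shRNA arm 7 markers passed as higher, where 9.4% of all genes did and 7.94% were lower: FPR1, CST7, TYROBP, CST3, FCGR2A, MS4A3 and FCER1G (adjusted p from 4.70e-04 to 0.0355). With the block in both arms ELANE passed (0.0334) and FCER1G did not (0.0532). FPR1 and CST7 were above their control in both CEP701 arrays and below it in both PRMT5 shRNA arrays. MS4A6A was above its control under both treatments, with effects of 1.26 for CEP701 and 0.71 for the knockdown, and their difference of 0.56 had a 95% interval of -0.16 to 1.28 (adjusted p = 0.368).

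Lists of related genes were counted by the same test. Over all genes 25.5% were higher and 20.3% lower in scramble cells than in DMSO cells, 3.74% rose and 2.04% fell with CEP701, and with the block 0.318% rose and 1.43% fell with the knockdown. Of 16 proteins of the later granules, 10 were tested, and 5 were higher and 2 lower in scramble cells than in DMSO cells. Of the 15 with a probe set, 9 were under 60.0 on every drug arm array, 4 of them on all arrays. Where the shRNA arm alone took such a gene past the filter, its count does not support the higher direction. CHI3L1, a chitinase-like protein, was at 6.25, and CEACAM8, a granulocyte adhesion protein, at 4.16, while LCN2, lipocalin 2, was at -2.0 and CRISP3 at -2.53 (adjusted p = 1.59e-05, 3.33e-04, 1.98e-04 and 0.0467). MMP9, gelatinase B, was at 2.62, CEACAM6 at 2.77 and DEFA4, a defensin, at 3.5 (adjusted p from 9.09e-04 to 0.00591). None passed with CEP701 by limma, where LTF, lactoferrin, was at 1.45 (adjusted p = 0.19, and 0.00102 with the block). None passed with the knockdown, with or without the block, where 9 of 10 lay below 0 with a median of -0.79 and 1 had an unadjusted p under 0.05. All 5 tested genes of the phagocyte oxidase were higher in scramble cells. CYBB, its catalytic subunit, was at 4.05 and NCF1, its cytosolic organizer, at 5.03, and CYBA, NCF4 and RAC2 at 0.59 to 1.10. NCF1 fell with the knockdown under the block, at 1537 and 768 in PRMT5 shRNA cells, against 3211 and 2998 in scramble cells (-1.50, adjusted p = 0.182, and 0.0113 with the block).

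Of 18 tested genes among 22 further monocyte and macrophage genes, 15 were higher and 0 lower in scramble cells, with a median of 2.52, and CD86, CCR2 and ITGB2 at 5.60, 5.04 and 4.68. Of the 20 with a probe set, 7 were under 60.0 on every drug arm array, so the filter favoured the higher side for those tested. With CEP701, CX3CR1, the fractalkine receptor, rose to 2029.8 and 2139.9 in CEP701 cells, against 1311 and 1240.3 in DMSO cells (0.70 ± 0.16, adjusted p = 0.0411). ITGAM, the integrin CD11b, fell with the knockdown under the block, with 410.1 and 557 in PRMT5 shRNA cells, against 733 and 1579 in scramble cells (-1.15, adjusted p = 0.453, and 0.0294 with the block). All 8 tested genes of 10 inhibitory receptors and their relatives were higher in scramble cells, with SIRPA highest at 6.03. Of the 9 with a probe set, 4 were under 60.0 on every drug arm array. For those of them tested the filter favoured the higher side, so their count does not support that direction. SIGLEC7, a sialic acid receptor, rose to 275 and 333 in CEP701 cells, against 136 and 63.4 in DMSO cells (1.59 ± 0.37, adjusted p = 0.0419).

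Of 12 myeloid transcription factors, 10 were tested, of which SPI1 and IRF8 also stand in the monocyte list. Among the 10, 1 was under 60.0 on every drug arm array, where the filter favoured the higher side. In scramble cells relative to DMSO cells, IRF8 (4.45), KLF4 (4.27), CEBPD (2.70), GFI1 (2.14) and CEBPB (1.54) were higher and CEBPA (-1.46) lower (adjusted p from 2.49e-06 to 0.0029). SPI1, which encodes PU.1, was at 0.16 ± 0.40 (adjusted p = 0.773). With CEP701, GFI1, a repressor needed for neutrophil development, rose to 787 and 696 in CEP701 cells, against 119 and 201 in DMSO cells (2.19 ± 0.43, adjusted p = 0.0252). CEBPD fell to 194 and 141 in CEP701 cells, against 374 and 341 in DMSO cells (-1.07 ± 0.21, adjusted p = 0.0256). CEBPA and GFI1B also fell (-0.89 and -1.24, adjusted p = 0.0358 and 0.00504). None of the 10 passed with the knockdown by limma, with or without the block, and none had an unadjusted p under 0.05, and their differences ran from -0.59 to 0.24.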

How the data were processed

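RNA of 8 samples was measured on Affymetrix 3′ expression arrays, 2 arrays in each of 4 groups. The deposited intensity values are MAS5 signals made by the authors in Affymetrix Expression Console, per the submitters' processing notes, with versions not given in the sources used here. In the values themselves each array has the same mean after trimming 2% at either end. Probe sets number 54675, of which 41097 name 1 gene in the platform annotation, 1801 several and 11777 none, and symbols were updated through RefSeq (GRCh38.p14).

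Signals were turned into log2(signal + 10). Probe sets above the median of all signals (60.0) on at least 2 arrays were kept, and the brightest per gene by mean log2 value was used. All 14162 genes were fitted over the 4 groups with limma 3.58.1 (lmFit, eBayes with trend) in R 4.3.3, with Benjamini-Hochberg adjustment and a threshold of 0.05. The fit has 4 residual and 5.37 prior degrees of freedom, so the number of arrays limits the precision. The script was tested on simulated data. Figures were drawn with matplotlib 3.10.9 in Python 3.11.15.

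Same-numbered arrays deviated together in the shRNA arm (r = 0.323 across genes), where they share a title suffix, and not in the drug arm (r = -0.011), so blocked values are given for the shRNA arm. Alternatives covered the added constant, filter, scaling, choice of probe set, moderation, block, arm alone and leaving out each array. Members, gene lists and tests were chosen with earlier results of these data known. Values were given in full for markers that passed a test, the 6 with the largest differences per comparison and at least 1 per role, and for genes of other lists that passed.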

Additional observations from a re-analysis of the deposited data

Results flagged for a closer look

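FPR1, the formyl peptide receptor, and CST7, cystatin F, are listed because their arrays lay on opposite sides of the controls under the drug and the knockdown, although neither gene passed in both comparisons without the block. For both genes, both CEP701 arrays lay above both DMSO arrays, and both PRMT5 shRNA arrays lay below both scramble arrays. The CEP701 effect minus the knockdown effect was 1.91 on the log2 scale for FPR1 (adjusted p = 0.0529, and 0.00231 with the shRNA arm's pairs as a block). It was likewise 1.91 for CST7 (adjusted p = 0.0711, and 4.70e-04 with the block). For CEP701 alone the adjusted p was 0.0419 for FPR1 and 0.111 for CST7 (0.00322 and 0.00233 with the block). For the knockdown alone it was 0.688 for FPR1 (0.149 with the block) and 0.505 for CST7 (0.0127 with the block). The difference of effects passed for both genes without the block when scramble replicate 1 or PRMT5 shRNA replicate 2 was left out. No group had enough arrays for a check of single outlying arrays.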

How the results depend on the processing

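No value changed sign past the threshold under any alternative run. For CEP701 against DMSO, the 2 markers that passed became 1 with no filter, with quantile normalization and with median scaling, 0 with eBayes without trend, 7 with the drug arm fitted alone and 10 with the replicate block in both arms or in the shRNA arm. Leaving out 1 array gave 0 to 6. Over all genes 819 passed, against 489 with no filter, 455 with quantile normalization, 537 with the mean of probe sets, 167 without trend, 3208 in the arm alone, 3040 and 3155 with the blocks in both arms and in the shRNA arm, and 6 to 1233 with 1 array left out. For PRMT5 shRNA against scramble, 0 markers passed, against 3 and 4 with those blocks and 0 to 1 with 1 array left out, where MS4A3 passed without PRMT5 shRNA replicate 2. Over all genes 21 passed, against 0 without trend or in the arm alone, 212 and 247 with the blocks and 3 to 27 with 1 array left out. For the difference of effects, 0 markers passed, against 7 with either block and 0 to 3 with 1 array left out. Over all genes 203 passed, against 132 with no filter, 115 with quantile normalization, 124 with median scaling, 40 with poly-A scaling, 117 with the mean of probe sets, 0 without trend, 2296 and 2456 with the blocks and 0 to 808 with 1 array left out. For scramble against DMSO, 30 markers passed, and 27 to 30 with 1 array left out, while over all genes 6486 passed and 4520 to 6795 did so with 1 array left out. The cause of these shifts was not tested. The arm alone was not run for the difference of effects or for scramble against DMSO, which span both arms. Signals under 60.0 carry little order, which limits 13 markers in the drug arm, and the log2 difference of S100A9 between the arms was 10.18 with 1 added and 7.98 with 32 added.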
